A study of Mus musculus with 6 samples.

Results

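The imprinted growth network genes followed here are H19, Dlk1, Meg3, Peg3, Mest, Plagl1, Cdkn1c, Grb10, Ndn and Peg10. They were taken as the non-control array probes that map to these 10 genes, and 9 of the 10 were measured well enough to be tested, among 25777 genes and transcripts in all. The samples were cells freed by collagenase from mesenteric fat, with red cells lysed, of male C57BL/6JHamSlc-ob/ob mice, which lack working leptin and become obese. In the propolis group the mice received Brazilian propolis ethanol extract, a bee product, injected into the peritoneum. The dose was 100 mg/kg, with 2 injections in each of 12 weeks. In the vehicle group they received injections of dilute DMSO and ethanol instead. Each group had 3 samples, each on its own 1-colour array. The labels call them biological replicates and give neither the age of the mice nor how many mice each sample holds, so p-values measure the spread between these samples. The leptin mutation and the injections were common to both groups.

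Imprinted genes are expressed mainly from the copy inherited from one parent, and in mice many of them promote or restrain growth before birth. A set of them is co-expressed in many embryonic tissues and declines together after birth, and it has been described as a network in which the zinc-finger factor Plagl1 (also called Zac1) acts on other members such as H19 and Cdkn1c. In fat, Dlk1 (also called Pref-1) marks preadipocytes and holds back their differentiation, and Mest is known for its link to the expansion of adipocytes.

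The genes gave 24 probes, of which 21 exceeded background clearly on 3 or more arrays and 19 on all 6. Symbols came from accessions matched to a RefSeq table, except that the scanner files themselves label 5 probes H19. A further 2 probes carry an accession that this table does not list. It may be an older one of H19, and these probes were not used. Every level below is a log2 intensity relative to the 75th percentile of that array. Every difference is propolis minus vehicle on this scale, and every ± is an SD with n = 3 arrays. Levels of different probes are not compared, since each probe has its own brightness. Arrays 1 and 2 of both groups shared slide 1, and arrays 3 of both groups shared slide 2. All 13 listed markers of adipose progenitors, among them Pdgfra, Pdgfrb and Dpp4, and all 10 macrophage genes with a matched probe were bright enough to be tested. Transcripts of neighbouring organs were highest in single vehicle arrays. Pancreatic acinar genes averaged -3.32 to -2.89 in propolis arrays, while vehicle 2 stood at 4.64 and the other vehicle arrays at -2.89 and -2.47. Intestinal epithelial genes averaged -0.34, -1.95 and -3.48 in propolis 1, 2 and 3, while vehicle 3 stood at 4.67 and the other vehicle arrays at -2.69 and -2.52. Propolis 1 and 2 thus lay above vehicle 1 and 2 for this list.

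Promoter windows of 300 bases, from 250 before to 50 after a RefSeq start in GRCm38.p6, were given for 7 of the 10 genes. A window each of Plagl1, Meg3 and Dlk1 is shown, and those of Grb10, Mest and Ndn are not. The Peg3 window is added because it is the only one of 11 member windows to hold GGGGCCCC. That palindrome is the one bound best by Plagl1 protein in binding-site selection, and 1.08% of all 32851 windows hold it. Capitals also mark TGCCGC, the hexamer that ZFP57 reads on methylated imprinted alleles (5 of 11 member windows, 2 of them Mest windows that overlap almost fully, against 11.6% of all windows), and TATAAA (1 of 11, against 13.6%). Both strands were searched, and in the Meg3 window 2 TATAAA matches on opposite strands overlap. A match is a run of letters and not a measured site.
Plagl1 promoter, chr10:13090582-13090881, plus strand: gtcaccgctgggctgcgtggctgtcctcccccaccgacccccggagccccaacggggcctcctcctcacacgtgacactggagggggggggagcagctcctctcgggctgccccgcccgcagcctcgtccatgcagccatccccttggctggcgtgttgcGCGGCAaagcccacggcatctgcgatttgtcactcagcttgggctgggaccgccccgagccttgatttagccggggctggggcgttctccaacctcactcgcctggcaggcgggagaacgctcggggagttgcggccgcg
Meg3 promoter, chr12:109540746-109541045, plus strand: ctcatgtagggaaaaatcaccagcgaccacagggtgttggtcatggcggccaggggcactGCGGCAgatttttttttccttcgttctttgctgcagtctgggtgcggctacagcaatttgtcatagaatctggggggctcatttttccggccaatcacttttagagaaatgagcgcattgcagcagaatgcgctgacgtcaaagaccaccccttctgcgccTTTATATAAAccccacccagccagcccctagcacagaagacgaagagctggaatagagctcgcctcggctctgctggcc
Dlk1 promoter, chr12:109452573-109452872, plus strand: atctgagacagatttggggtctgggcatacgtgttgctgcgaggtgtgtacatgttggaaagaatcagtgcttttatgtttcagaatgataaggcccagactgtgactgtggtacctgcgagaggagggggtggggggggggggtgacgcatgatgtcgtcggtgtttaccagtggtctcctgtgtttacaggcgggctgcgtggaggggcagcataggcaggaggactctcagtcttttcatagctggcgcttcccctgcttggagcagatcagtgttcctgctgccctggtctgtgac
Peg3 promoter, chr7:6730370-6730669, minus strand: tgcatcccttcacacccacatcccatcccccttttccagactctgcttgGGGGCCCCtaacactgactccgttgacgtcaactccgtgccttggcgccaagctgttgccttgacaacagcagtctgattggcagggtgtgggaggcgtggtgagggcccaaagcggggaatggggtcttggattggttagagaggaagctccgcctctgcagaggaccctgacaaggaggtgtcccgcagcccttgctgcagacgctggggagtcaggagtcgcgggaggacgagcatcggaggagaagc
A second Meg3 window, chr12:109545148-109545447, holds none of these motifs and 1 CpG pair. CpG pairs numbered 26 in the Plagl1 window, 13 in the Meg3 window shown, 9 in the Dlk1 window and 13 in the Peg3 window. The median was 13 over the 11 member windows and 7 over all windows. TGCCGC itself holds a CpG pair, and the part of CpG content in its matches was not tested.

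H19, Meg3 and Mest are also hosts of microRNAs, which these probes do not measure. They are shown because the values of the host transcripts below are the only readout of these loci here. Capitals mark the seed, bases 2 to 8.
mmu-miR-675-5p, inside H19, chr7:142577112-142577133, minus strand: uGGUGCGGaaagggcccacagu
mmu-miR-770-5p, inside Meg3, chr12:109563710-109563731, plus strand: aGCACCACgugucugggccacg
mmu-miR-335-5p, inside Mest, chr6:30741314-30741336, plus strand: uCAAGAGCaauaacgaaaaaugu
The 3 seeds differ from one another.

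Propolis was set against vehicle to see which genes differed in these cells after the injections. No member passed the test: limma with Benjamini-Hochberg adjustment over all 25777 genes called 0 of 9 at 0.05, where it called 0.834% of all genes, 215 in number (0.722% higher and 0.113% lower in propolis). With a single array left out, the number called over all genes was 53, 11 and 41 without vehicle 1, 2 and 3 and 77, 11 and 94 without propolis 1, 2 and 3, and the number of members called was 0 each time. At an unadjusted limma p under 0.05 there were 2 members, Plagl1 and Meg3, both with higher means in propolis, where 7.24% of all genes were higher and 4.48% lower at that level. These were also the only 2 of 9 whose groups did not overlap, a state that 17.4% of all genes shared (10.8% higher and 6.62% lower in propolis). Means were higher in propolis for 5 members (Plagl1, Grb10, H19, Meg3 and Cdkn1c) and lower for 4 (Mest, Dlk1, Peg3 and Ndn). The median difference of the 9 was 0.78, which is the value of Cdkn1c, against a median of -0.0041 over all genes, and without propolis 2 it was 0.42. With 3 arrays against 3, an exact permutation test of a single gene cannot give a p below 0.1.

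**Figure D1:**
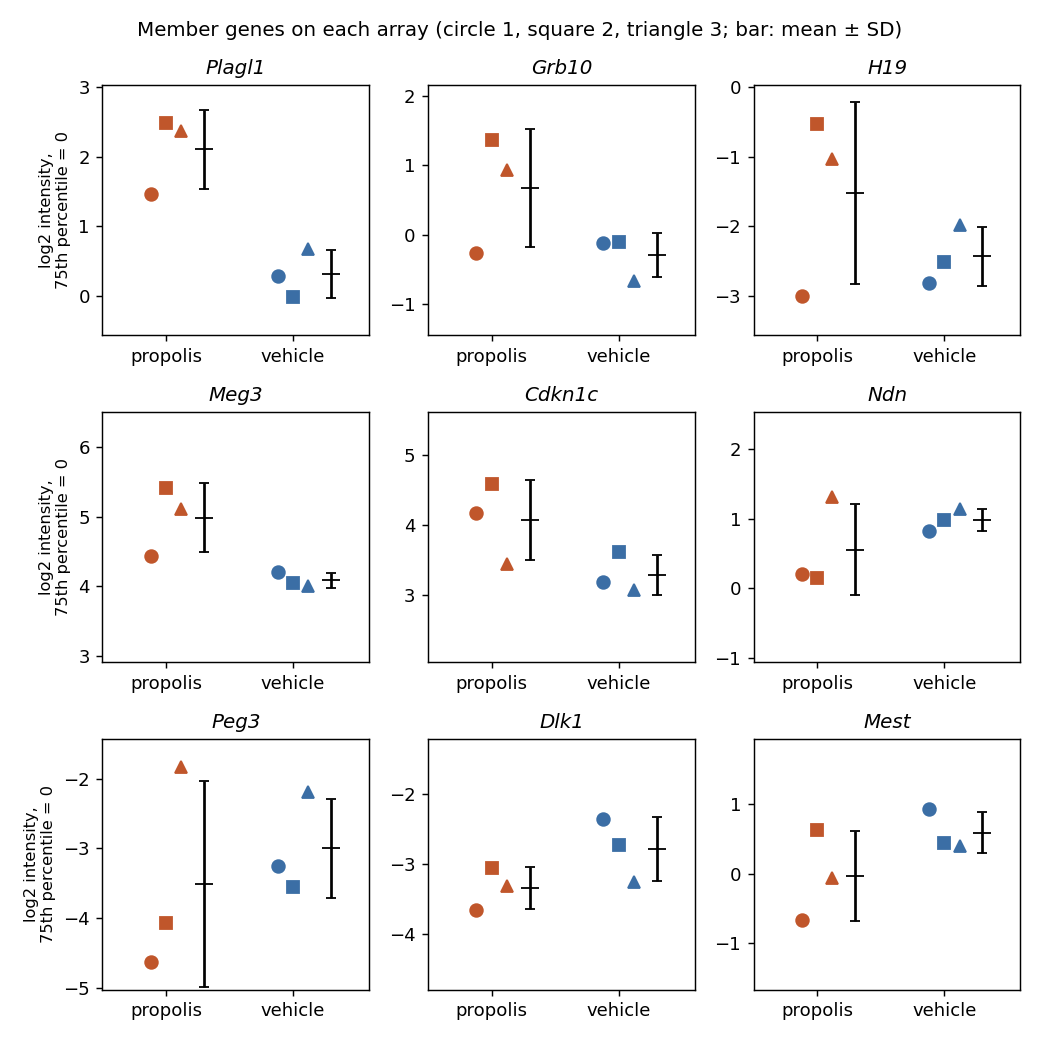
Level of each tested member on each array, as log2 intensity with the array's 75th percentile at 0, in propolis arrays on the left of each panel and vehicle arrays on the right; circles, squares and triangles are arrays 1, 2 and 3, and bars are means ± SD (n = 3). Plagl1 and Meg3 are the panels in which no propolis array overlaps a vehicle array, and each panel spans the same number of log2 units.

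Plagl1 encodes a zinc-finger transcription factor that can halt the cell cycle and induce apoptosis. It read 1.46, 2.49 and 2.38 in propolis arrays, against 0.28, -0.02 and 0.67 in vehicle arrays. All 3 propolis arrays lay above all 3 vehicle arrays, with propolis 1 the nearest to them. The means were 2.11 ± 0.56 in propolis and 0.31 ± 0.35 in vehicle, a difference of 1.80 (95% interval 0.98 to 2.61) or 3.47-fold, with a limma adjusted p of 0.0879. The difference was 1.84 on slide 1 and 1.71 on slide 2. Scaling each array to its median in place of its 75th percentile brought Plagl1 under the threshold (adjusted p = 0.0407). That scaling moved the median difference of all genes to 0.15. With weights for array quality the adjusted p was 0.00486, and over the 20 alternatives it ran from 0.00486 to 0.719.

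The 4 probes of Plagl1 did not give the same value. The probe above (A_55_P1961968) and A_52_P532456, which read 1.09, 2.30 and 2.19 in propolis and 0.07, -0.34 and 0.54 in vehicle, differed by 1.80 and 1.77. The other two, A_55_P2153251 and A_55_P1961965, differed by 0.0012 and -0.24, with groups that overlapped. All 4 were well above background on all 6 arrays and carry the same transcript accession, and which part of the transcript each covers is not given in the sources used here. With the probes averaged, the Plagl1 difference was 0.83. Only the brightest probe of a gene, averaged over the arrays, entered the test.

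**Figure D2:**
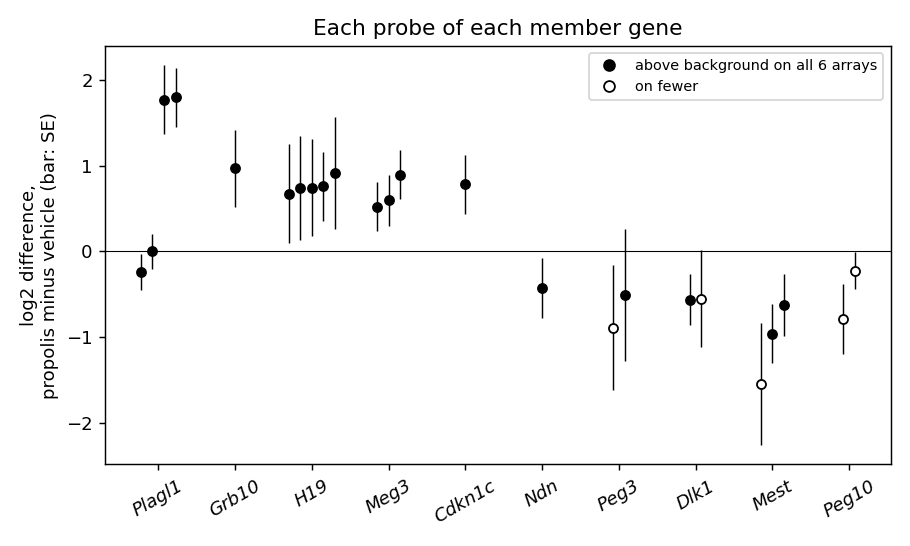
Log2 difference, propolis minus vehicle, of each of the 24 probes, grouped by gene; bars are standard errors of the fit, and open circles are probes that stood above background on fewer than 6 arrays. The Plagl1 probes form a pair near 1.8 and a pair near 0, the 5 H19 probes lie together, and all 3 Mest probes lie below 0.

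The network's cell cycle inhibitor, Cdkn1c, encodes a protein that blocks cyclin-dependent kinases. It read 4.18, 4.58 and 3.45 in propolis arrays, against 3.19, 3.61 and 3.06 in vehicle arrays. Propolis 3 lay under vehicle 2, so the groups overlapped. The difference was 0.78 (95% interval -0.01 to 1.58, adjusted p = 0.438), with 0.98 on slide 1 and 0.38 on slide 2. Its relatives Cdkn1a and Cdkn1b, which are not imprinted, differed by -0.13 and -0.05.

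Grb10 encodes an adaptor that dampens signalling from the insulin and IGF1 receptors. It read -0.26, 1.37 and 0.93 in propolis arrays, against -0.11, -0.11 and -0.66 in vehicle arrays. Propolis 2 and 3 were high, and propolis 1 lay within the range of vehicle. The difference was 0.97 (95% interval -0.09 to 2.03, adjusted p = 0.470), and it was 1.44 without propolis 1 and 0.62 without propolis 2. Its relative Grb14, an adaptor of the same receptors, differed by 1.31 without overlap (adjusted p = 0.174). Grb14 read -0.62, -0.72 and -1.71 in propolis and -2.53, -2.29 and -2.15 in vehicle. The other relative tested, Grb7, went the other way, by -1.83 with overlap (adjusted p = 0.660). It read 1.09 in vehicle 3, against -3.33 and -3.40 in vehicle 1 and 2.

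Both long noncoding RNAs had higher means in propolis. H19, the host of miR-675, read -3.01, -0.53 and -1.03 in propolis arrays, against -2.81, -2.52 and -1.98 in vehicle arrays. Propolis 1 was the lowest of all 6 arrays and propolis 2 and 3 the highest. The difference was 0.91 (95% interval -0.65 to 2.48, adjusted p = 0.680), 1.66 without propolis 1 and 0.42 without propolis 2. All 5 probes labelled H19 showed propolis 1 under propolis 2 and 3, and their differences ran from 0.68 to 0.91.

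Meg3 (also called Gtl2) is a noncoding RNA that restrains growth of cultured cells. It read 4.44, 5.40 and 5.11 in propolis arrays, against 4.21, 4.05 and 3.999 in vehicle arrays. No array of 1 group overlapped the other, and the vehicle arrays spanned 0.21 where the propolis arrays spanned 0.97. The means were 4.98 ± 0.50 in propolis and 4.09 ± 0.11 in vehicle, a difference of 0.90 (95% interval 0.23 to 1.56) with an adjusted p of 0.265, and it was 0.79 on slide 1 and 1.11 on slide 2. The 2 other Meg3 probes differed by 0.60 and 0.52, and in both the groups overlapped.

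The 4 members with lower means in propolis are expressed from the paternal copy, and so is Plagl1, whose mean was higher. Mest (also called Peg1), which encodes a protein of the alpha/beta hydrolase fold, read -0.66, 0.62 and -0.06 in propolis arrays, against 0.93, 0.43 and 0.40 in vehicle arrays. Propolis 2 lay among the vehicle arrays and the other 2 below them. The difference was -0.62 (95% interval -1.48 to 0.24, adjusted p = 0.593), -0.31 without propolis 1 and -0.95 without propolis 2. A second Mest probe, A_55_P2090025, read -2.59, -1.55 and -1.36 in propolis and -0.80, -0.93 and -0.89 in vehicle, a difference of -0.96 without overlap. It carries the accession of another Mest transcript, and so does the dim probe A_55_P2151868, which stood above background on 1 of 3 propolis arrays and 3 of 3 vehicle arrays and differed by -1.55. With the 3 probes averaged, the Mest difference was -1.04 and did not pass.

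Dlk1, the preadipocyte factor, read -3.66, -3.06 and -3.32 in propolis arrays, against -2.36, -2.73 and -3.26 in vehicle arrays. Propolis 2 lay above vehicle 3, and the difference was -0.56 (95% interval -1.26 to 0.14, adjusted p = 0.547). On slide 1 it was -0.82 and on slide 2 -0.05, and without vehicle 1 it was -0.35. The other Dlk1 probe was not well above background on any array.

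Peg3 encodes a zinc-finger protein found in adult stem and progenitor cells, and Ndn encodes necdin, a protein that restrains proliferation and adipogenesis. For both, array 3 was the highest of each group. Peg3 read -4.63, -4.07 and -1.83 in propolis arrays, against -3.26, -3.55 and -2.19 in vehicle arrays. The slide 2 array stood 2.51 above the mean of the slide 1 arrays in propolis and 1.21 above it in vehicle. Its difference was -0.51 (95% interval -2.36 to 1.34, adjusted p = 0.856), -0.94 on slide 1 and 0.36 on slide 2. It was 0.051, -0.23 and -1.35 without propolis 1, 2 and 3, and -0.78 and -0.11 without vehicle 2 and 3. The other Peg3 probe, above background on 1 of 3 propolis arrays and 3 of 3 vehicle arrays, differed by -0.89 with overlap. With both probes averaged, the Peg3 difference was -0.70. Ndn read 0.20, 0.15 and 1.31 in propolis arrays, against 0.82, 0.99 and 1.14 in vehicle arrays. Its difference was -0.43 (95% interval -1.25 to 0.40, adjusted p = 0.721), -0.73 on slide 1 and 0.17 on slide 2. It was -0.25, -0.22 and -0.81 without propolis 1, 2 and 3. Peg3 and Ndn were thus the 2 of 9 members whose direction was not the same on the slides, and with slide as a block neither passed.

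Maged1, a relative of Ndn that is not imprinted, had the lowest p of the 19 such relatives of members that were tested, of which limma called 0. It read 4.75, 5.09 and 4.44 in propolis arrays, against 3.55, 3.32 and 3.29 in vehicle arrays, a difference of 1.37 without overlap (adjusted p = 0.0596). The imprinted relative Magel2 differed by -0.19.

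Peg10, derived from a retrotransposon and needed for the mouse placenta, was not well above background on any of the 6 arrays with either of its 2 probes, so it was not tested and no fold is given. Igf2, the imprinted growth factor beside H19, was well above background on 1 array of each group, propolis 3 and vehicle 3, and did not enter the test either. It read -5.70, -5.22 and -4.46 in propolis and -5.17, -5.10 and -4.67 in vehicle. Igf2r, its clearance receptor, differed by -0.16 (adjusted p = 0.842).

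**Figure D3:**
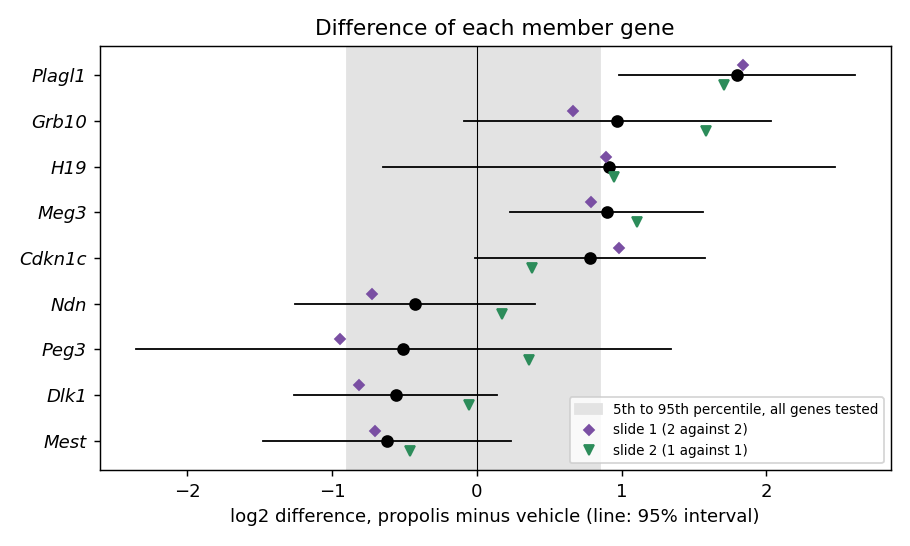
Log2 difference, propolis minus vehicle, of the 9 tested members (black circles with the 95% interval), with the difference on slide 1 (diamonds, 2 arrays against 2) and on slide 2 (triangles, 1 against 1); the grey band runs from the 5th to the 95th percentile of all 25777 genes, -0.89 to 0.85. The intervals of Plagl1 and Meg3 lie above 0, those of the other 7 cross it, and Peg3 and Ndn change sign between the slides.

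Among themselves the members shared a pattern over the propolis arrays. In 7 of 9 (all but Cdkn1c and Ndn) propolis 1 was the lowest of the 3, where 37.1% of all genes had their lowest propolis value there. In 7 of 9 (all but Peg3 and Ndn) propolis 2 was the highest, as in 31.3% of all genes. In 8 of 9, all but Dlk1, the propolis arrays spanned more than the vehicle arrays, as 61.4% of all genes did. Cell cycle genes averaged -0.43, 1.43 and -0.36 in propolis 1, 2 and 3, against 1.21, 0.82 and 0.59 in vehicle. Their mean too was highest in propolis 2, while propolis 1 and 3 lay close together. Some genes of the list, such as Cdk1, Mcm5 and Pcna, were lowest in propolis 3. The macrophage list was also lowest in propolis 1 and highest in propolis 2, at 4.53, 4.74 and 4.63 in propolis 1, 2 and 3. The part of these lists in the members' pattern was not tested.

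Markers of other cells also differed between the groups. Of 10 mesothelial genes, which mark the lining of the peritoneum, 9 had higher means in propolis, and Wt1 (difference 1.98, adjusted p = 0.0320) and Bnc1 (2.87, adjusted p = 0.0299) rose. The list averaged 2.09, 1.56 and 2.47 in propolis arrays, against 0.98, -0.32 and 1.57 in vehicle arrays, so its groups overlapped by propolis 2 and vehicle 3. In vehicle 3, where the intestinal list is high, the listed keratin genes Krt19, Krt8 and Krt18 read 5.24, 4.74 and 4.06. The part of intestinal transcripts in that overlap was not tested. By single gene, 5 of the 10 were higher in propolis without overlap, against 10.8% of all genes. All 13 adipocyte genes and all 10 endothelial genes had lower means in propolis, with 0 called by limma and 5 and 3 at an unadjusted p under 0.05 (4.48% of all genes were lower at that level). The adipocyte list averaged -0.13 to 0.86 in propolis and 0.59 to 1.79 in vehicle, and the endothelial list 1.62 to 2.73 and 2.64 to 3.21. All 7 tested B cell genes also had lower means in propolis, with 0 called and 3 at an unadjusted p under 0.05. That list averaged -3.40, -2.99 and -1.98 in propolis arrays, against -0.47, 1.57 and -2.36 in vehicle arrays, so it was high in vehicle 1 and 2 but not in vehicle 3. The 13 adipose progenitor genes averaged 3.61 to 4.06 in propolis and 3.81 to 3.98 in vehicle. The part of these markers in the members' differences was not tested. In such mixed samples, fewer cells of a type and less RNA per cell cannot be told apart.

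**Figure D4:**
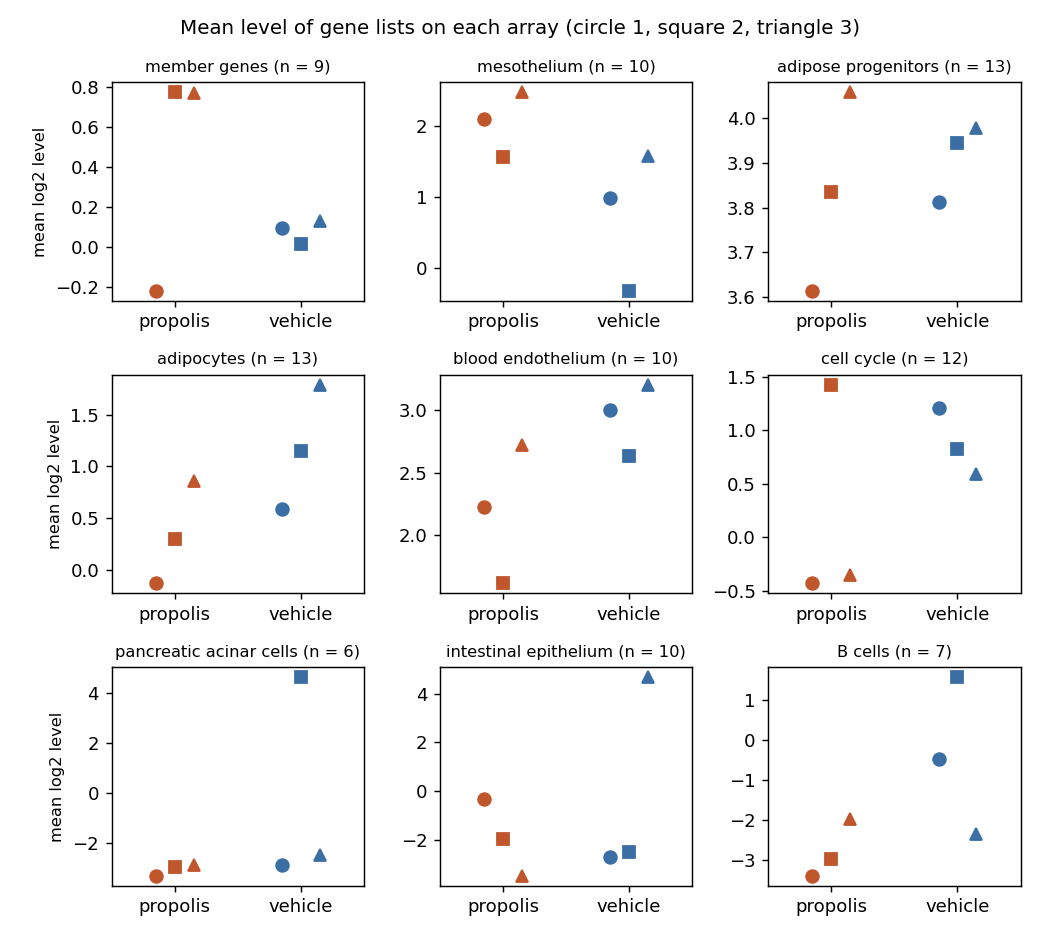
Mean log2 level of each gene list on each array, propolis on the left and vehicle on the right of each panel, with circles, squares and triangles for arrays 1, 2 and 3; n is the number of genes tested, and each panel has its own axis. The acinar and intestinal lists are each high in a single vehicle array (4.64 in vehicle 2 and 4.67 in vehicle 3), and the mesothelial list is higher in most propolis arrays.

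The 3 named genes whose centred profile over the 6 arrays lay closest to that of Plagl1, out of 15764 compared, were Palld, Fbxo41 and Adamts3. Their root mean square distances were 0.13, 0.20 and 0.20 log2 units. Palld, which encodes the actin-binding protein palladin, read 3.25, 4.35 and 4.07 in propolis arrays, against 2.29, 2.06 and 2.57 in vehicle arrays (adjusted p = 0.105). Adamts3, a procollagen-processing protease gene, differed by 2.14 and had an adjusted p of 0.0501. It was well above background on 2 of 3 vehicle arrays and Fbxo41 on 0 of 3.

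Other imprinted genes were described from a list of 65, of which 52 were tested, 9 had probes too dim to enter and 4 had no matched probe. Limma called 0 of the 52, with 6 higher and 3 lower at an unadjusted p under 0.05 (11.7% of all genes reached that level in either direction). Groups did not overlap for 10 of 52, or 19.2%, against 17.4% of all genes, a share near the background. Their median difference was 0.0030, with 27 higher and 25 lower means.

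In the Dlk1-Dio3 region 3 of 4 tested genes had higher means in propolis with groups that did not overlap, and Dlk1 was the exception. Of all genes, 10.8% were higher in propolis without overlap. Dio3 encodes the deiodinase that inactivates thyroid hormone. It read -0.36, -1.78 and -2.34 in propolis arrays, against -3.62, -4.01 and -4.08 in vehicle arrays. The lowest propolis array stood above the highest vehicle array, and the difference was 2.41 (95% interval 1.20 to 3.63, adjusted p = 0.112). Here propolis 1 was the highest array, the reverse of its place for Meg3. Mirg, a noncoding host of microRNAs on the Meg3 strand, read 1.09, 2.36 and 1.73 in propolis, against 0.58, 0.49 and 0.38 in vehicle. Its difference was 1.24 (adjusted p = 0.199), and its propolis arrays stood in the same order as those of Meg3. Rtl1, also of this region, was not above background on any array.

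In the region that holds H19 and Cdkn1c, 9 of 13 tested genes had higher and 4 lower means. Tnfrsf23, a decoy receptor gene for TRAIL, read 1.67, 1.93 and 1.20 in propolis arrays, against 0.54, -0.01 and 0.35 in vehicle arrays, a difference of 1.31 (adjusted p = 0.0980). Kcnq1, a potassium channel gene also expressed in epithelia, read -0.92, -1.40 and -0.99 in propolis, against 0.56, 0.05 and 1.31 in vehicle, a difference of -1.74 (adjusted p = 0.0993). Vehicle 3, in which the intestinal list is high, had the highest Kcnq1 value, and the part of those transcripts in the difference was not tested. On slide 1, which does not hold that array, the difference was -1.46. Kcnq1ot1, the noncoding RNA that silences genes of this region on the paternal copy, differed by 0.40 and overlapped. Phlda2 was not above background on any array.

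Near the other members, tested neighbours differed by at most 0.89 in size. In the Peg10 region Tfpi2, a protease inhibitor gene, differed by 0.89 (adjusted p = 0.159) and Asb4 by -0.82 (adjusted p = 0.414), while Sgce, which shares its promoter region with Peg10, differed by 0.0052. In the Mest region Copg2 differed by -0.09, in the Peg3 region Zim3 by -0.23, and beside Plagl1 Phactr2 differed by -0.22. Beside Grb10, Ddc and Cobl were highest in vehicle 3, at 1.95 and 1.26, the array with high intestinal genes, against -1.39 and -1.23 for Ddc and -0.97 and -1.65 for Cobl in the other 2 vehicle arrays. In the region of Ndn, 5 of 7 tested genes had lower means, among them Snrpn at -0.28, and Atp10a differed by 0.55 without overlap (adjusted p = 0.381). Elsewhere, Impact differed by 0.57 (adjusted p = 0.381), and Rasgrf1, a guanine nucleotide exchange factor gene, by -1.60 (adjusted p = 0.220), above background on 1 of 3 propolis arrays and 3 of 3 vehicle arrays.

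**Figure D5:**
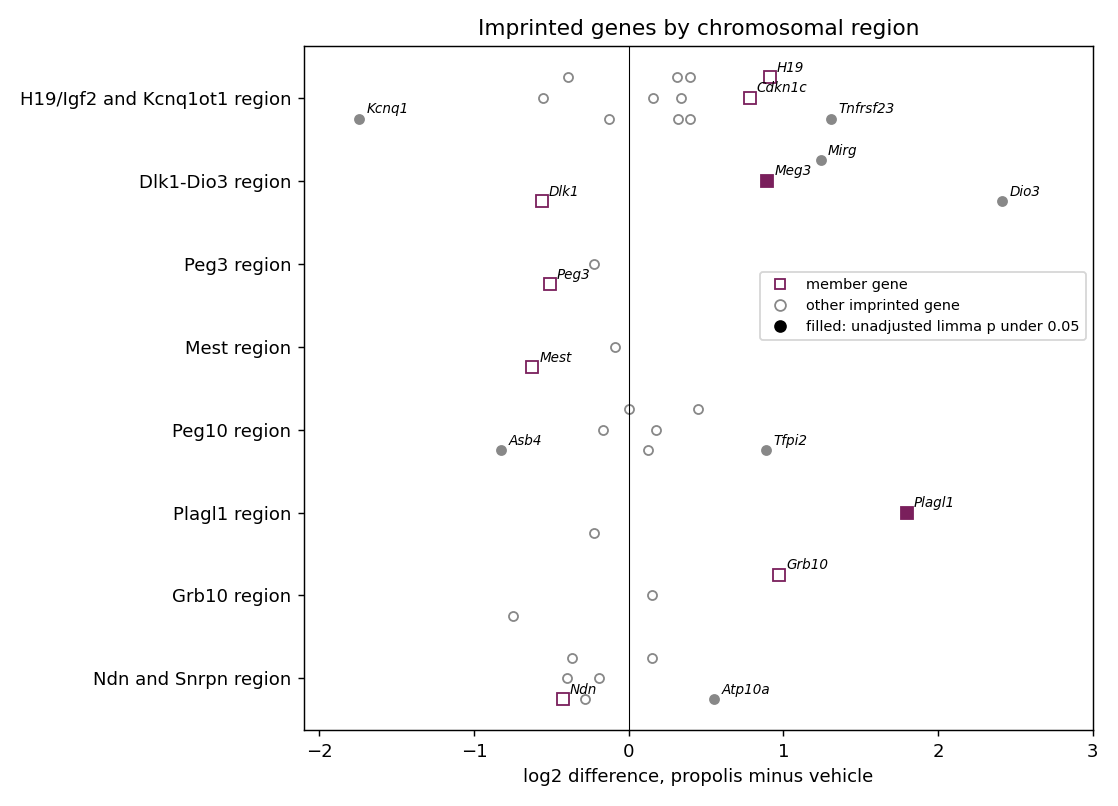
Log2 difference, propolis minus vehicle, of imprinted genes in the 8 chromosomal regions that hold the members; squares are members, circles other imprinted genes, and filled symbols have an unadjusted limma p under 0.05. Within the Dlk1-Dio3 region Dlk1 lies at -0.56 while Meg3, Mirg and Dio3 lie at 0.90 to 2.41, and 0 of the genes shown passed the adjusted threshold.

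Genes that set or keep imprints were described from a list of 17, all tested. Limma called 0 of them, and a single one had an unadjusted p below 0.05. This was Uhrf1, the partner of the maintenance DNA methyltransferase and a gene of cycling cells. It read -0.11, 1.11 and 0.53 in propolis arrays, against 1.60, 1.45 and 1.50 in vehicle arrays, a difference of -1.01 (adjusted p = 0.283), and its propolis arrays were lowest in propolis 1 and highest in propolis 2, the same order as most members. Dnmt1, the maintenance enzyme, differed by -0.06. The list's median difference was -0.01, with 5 higher and 12 lower means. Its mean level was 0.57, 0.56 and 0.52 in propolis arrays, against 0.77, 0.68 and 0.60 in vehicle arrays, without overlap. By single gene, groups did not overlap for 11.8% of the list, against 17.4% of all genes. DNA methylation and the parental origin of transcripts were not measured.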

How the data were processed

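The arrays were 1-colour Agilent mouse arrays, and per the file headers and the submitters' processing notes they were read with Agilent Feature Extraction 10.7.3.1 on a design made on mm9. The deposited scanner files hold a processed signal, a background-subtracted spot intensity on a linear scale. Log2 values with a 75th percentile near 0 on each array make up the deposited series table. Its array medians ran from -3.95 to -3.61, it followed the log2 scanner signal, and it served as an alternative.

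The processed signal was turned to log2, non-uniform spots (0 to 6 an array) were left out, replicate spots were merged into a mean per probe, and from it the 75th percentile of the array's probes was subtracted. That percentile ran from 459 to 729 in intensity, and 61.1% to 66.7% of 59305 spots stood well above background. A probe entered if well above background on at least 3 arrays, and each gene was represented by its brightest such probe. Of 55681 probes, 27235 had a symbol through RefSeq accessions of GRCm38.p6, used for names and promoter and microRNA sequences only. The comparison used lmFit and eBayes of limma 3.58.1 (R 4.3.3) without a block, and intervals use its moderated errors. The procedure was tested on simulated data with independent noise for each gene and array, so without effects shared by genes on an array or slide. Members and lists were chosen with earlier results of these data known, and the adjusted p-values cover all genes tested.

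Named genes are the members, the other imprinted genes of lowest p or in a member's region, Igf2 and Igf2r, up to 3 genes of lowest p in the lists of imprint control genes and of non-imprinted relatives, relatives named with a member, the 3 profiles nearest to the member of lowest p, and examples of marker lists. Cdkn1a, Cdkn1b, Grb7, Dnmt1, Wt1 and Bnc1 were named after their values were seen. T cell, B cell, smooth muscle and enteric nerve and glia lists were also measured, with median differences of -0.67, -2.30, -0.09 and -0.50, acinar and intestinal lists with -2.67 and -1.80, macrophages with 0.08, cell cycle genes with -0.75 and non-imprinted relatives with 0.02. Limma called 0 genes in each of these lists. The normexp correction was planned on mean signals and was run on median signals instead. No spot was saturated. The precision is limited by 3 arrays a group.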

Additional observations from a re-analysis of the deposited data

How the results depend on the processing

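Over 20 alternatives 173 of 180 member values kept their direction and stayed on the same side of the threshold, 6 passed it and 1 turned. With the filter changed or absent, a slide or replicate block, or limma's trend and robust options, differences of tested members equalled those given above. Their direction could not turn in these alternatives. The number of members called was 1 under median scaling (Plagl1) and 5 with array weights (H19, Meg3, Plagl1, Cdkn1c and Grb10), and 0 in the others. Array weights also called 7 other imprinted genes and 3231 of all genes, 1674 higher and 1557 lower. They gave vehicle 1 a weight of 8.28 and propolis 3 one of 0.29, so that fit leans on few arrays. Without the filter, which adds Peg10, the members' median difference was 0.18 and 106 of all genes were called. Slide 1 alone and the fit without vehicle 2 and vehicle 3 together each called 0 of all genes, with 5856 and 1362 at an unadjusted limma p under 0.05. In these, 5 and 2 members reached an unadjusted p under 0.05. With 1 array left out, 0 members and 0 other imprinted genes were called, all genes numbered 11 to 94, and the members' median difference ran from 0.42 to 0.87. Peg3 ran from -1.35 to 0.051, above 0 without propolis 1. The cause of these moves was not tested.

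With the replicate number as a block 73 of all genes and 0 members were called. Number 3 coincides with slide 2, and numbers 1 and 2 share slide 1, so the block takes in the slide. The labels do not pair the samples, and deviations of same-numbered arrays correlated across genes at 0.04, 0.29 and 0.14 for numbers 1, 2 and 3. With slide alone as the block, 313 of all genes and 0 members were called.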

Other observations

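A description by parental copy was made after the values were seen, from textbook knowledge of which copy is expressed. The 4 members expressed from the maternal copy (H19, Meg3, Cdkn1c and Grb10) all had higher means in propolis, by 0.78 to 0.97. Of the 5 tested members expressed from the paternal copy, Plagl1 had a higher mean and Dlk1, Peg3, Mest and Ndn had lower ones. Among other imprinted genes the counts lay nearer to an even split. Of 26 maternally expressed ones 15 had higher and 11 lower means, with a median difference of 0.14, and of 19 paternally expressed ones 8 had higher and 11 lower means, with a median of -0.15. Several of these are imprinted only in placenta or brain, and which copy was expressed in these cells was not measured.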
